A study of Mus musculus with 2 samples.

Results

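Potassium channel genes were described across the cell classes of the non-muscle compartment of the mouse heart. The set holds every gene whose symbol is Kcn followed by letters and a number, plus Abcc8 and Abcc9, which encode the sulfonylurea receptors that form ATP-sensitive channels together with inward rectifier subunits. This gave 94 of 31053 genes. No member was a marker of a cell class, but members were not left out of the genes behind the alternative clusters described below. Families were assigned from the symbols alone. By family, 40 members were voltage-gated subunits, 15 inward rectifiers, 14 subunits of 2-pore domain channels and 11 auxiliary subunits. A further 8, with symbols in Kcnma, Kcnn, Kcnt or Kcnu, were grouped as calcium- or sodium-activated channels, a name that need not hold for Kcnu1. There were also 4 beta subunits of the calcium-activated channel of large conductance, and 2 sulfonylurea receptors. Hearts of male mice were digested, and the suspension was depleted of cardiomyocytes by filtering and of CD45-positive leukocytes by magnetic beads before single-cell RNA sequencing with the 10x Genomics 3′ kit. One library came from db/+ mice, which carry 1 mutant allele of the leptin receptor, and the other from db/db mice, which carry 2, and which also received 1% salt. The title calls the latter an HFpEF model, that is, of heart failure in which the ejection fraction is preserved. The design names 4 hearts per genotype, but cells cannot be assigned to animals, and the sources used here do not give the age of the mice or the route and length of the salt treatment. Genotype and salt differed together and each group was 1 library, so no test between them was possible. Differences between the libraries compare those libraries and not the conditions, and every interval below covers counting error only.

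Potassium channels let potassium leave the cell and thereby hold the membrane potential negative. In contractile cells of the vessel wall, opening them closes voltage-gated calcium channels and relaxes the vessel. The vascular ATP-sensitive channel is built from pore subunits encoded by Kcnj8 (Kir6.1) and regulatory subunits encoded by Abcc9 (SUR2), and it opens when the energy supply of the cell falls. Voltage-gated channels open on depolarization, calcium-activated channels couple the membrane potential to intracellular calcium, and 2-pore domain channels carry background current.

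Kcnj8 and Abcc9, on which most of the mural results turn, lie side by side in the genome. Kcnj8 (ENSMUSG00000030247) occupies chr6:142564837-142571614 and Abcc9 (ENSMUSG00000030249) chr6:142587862-142702315 in GRCm38, both on the minus strand, with 16247 bases between them (GENCODE M21). Their promoter windows are shown because these genes were high in the same barcodes. The RefSeq table (GRCm38.p6), which had an entry for 68 of the 94 members, gave the sequence before each start, read 5′ to 3′ on the minus strand. The window of Kcnj8 is chr6:142571615-142571864, that of Abcc9 is chr6:142702316-142702524, and capitals mark the motif matches described next.
Kcnj8: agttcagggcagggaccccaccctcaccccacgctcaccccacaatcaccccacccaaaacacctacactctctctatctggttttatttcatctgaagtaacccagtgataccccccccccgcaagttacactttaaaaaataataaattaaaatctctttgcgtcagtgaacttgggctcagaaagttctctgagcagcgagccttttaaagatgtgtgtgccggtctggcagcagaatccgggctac
Abcc9: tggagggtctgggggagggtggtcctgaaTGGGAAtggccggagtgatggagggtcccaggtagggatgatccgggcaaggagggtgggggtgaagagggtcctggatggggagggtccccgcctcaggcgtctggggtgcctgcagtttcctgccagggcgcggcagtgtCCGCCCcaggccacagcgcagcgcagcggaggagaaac
Both strands of the 250 bases before the start were searched for the TATA box (TATAAA), for the GC box that binds Sp1 (GGGCGG), for the core letters of RBPJ sites (TGGGAA) and for the CArG box, which serum response factor binds and which is given by name. The Kcnj8 window held none of them. The 250 bases before the RefSeq start of Abcc9 held TGGGAA 221 to 216 bases before that start. They also held GGGCGG on the opposite strand 79 to 74 bases before it, where it reads CCGCCC. The 41 bases nearest to that start lie inside the GENCODE gene and are left out of the Abcc9 window shown, which has 209 bases. Over 32851 promoters of the same length, TATAAA was present in 12.4%, GGGCGG in 32.7%, TGGGAA in 21.6% and the CArG box in 1.47%. These matches describe letters and show no binding. The Kcnj8 window was 49.2% G and C, and the Abcc9 window was 68.4%.

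After filtering, 4884 barcodes of the db/+ library and 4094 of the db/db and salt library remained, with medians of 7048 and 7772 UMIs (unique molecular identifiers, each standing for a captured transcript). Barcodes were assigned to classes from UMIs of marker genes. This gave 3298 and 2754 endothelial-like, 1225 and 1086 fibroblast-like, 42 and 39 pericyte-like and 28 and 31 smooth muscle-like barcodes, in the order db/+ and then db/db and salt, which holds for all paired values below. Most mural barcodes carried endothelial markers as well: 258 of 398 (64.8%) did. They were kept apart as pericyte-like with endothelial (75 and 38) and smooth muscle-like with endothelial (77 and 68). Endothelial markers summed to 772 and 819 CPM (counts per 1000000 UMIs of the class) in pericyte-like barcodes and to 691 and 928 CPM in smooth muscle-like barcodes, against 7541 and 8501 CPM in endothelial-like ones, so endothelial RNA was present in both mural classes. Pericyte and smooth muscle markers did not separate fully either. Pericyte markers, of which Rgs5 is also known from smooth muscle, reached 18030 and 16690 CPM in smooth muscle-like and 26600 and 27660 CPM in pericyte-like barcodes, whereas smooth muscle markers reached 20620 and 24520 CPM in the former and 910 and 747 CPM in the latter. In an alternative clustering of all cells, some endothelial-like barcodes separated by library, and 1 such cluster held 687 db/+ and 7 db/db and salt barcodes. The cluster named smooth muscle held 120 and 120 barcodes, with a UMI for 81.8% of endothelial markers on average. In the clusters named pericyte this share was 96.0% and 20.1%. Mural classes from clusters thus took in barcodes with endothelial RNA. The libraries shared 7 barcode sequences before filtering and 5 among the kept barcodes. In the small mural classes 3 UMIs correspond to 13.2 to 16.7 CPM, so levels near 10 CPM there rest on 1 or 2 UMIs.

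Of the 94 members, 56 stayed below 10 CPM in every class, and 19 of these had no UMI in the kept barcodes. A further 19 reached 10 CPM only in classes with fewer than 50 barcodes in a library, and 19 reached it in a larger class. In endothelial-like barcodes 6 members were at or above 10 CPM in each library, where 26.7% and 27.0% of all genes reached that level. The count was 5 and 3 in fibroblast-like barcodes (27.7% and 28.1% of all genes), 13 and 9 in pericyte-like (29.0% and 28.5%) and 15 and 12 in smooth muscle-like barcodes (28.5% and 26.2%). The share of members at this level, 3.19% to 16.0%, was thus below the share of all genes in each of these classes and libraries. Among 15 members that reached 10 CPM in at least 1 of these 4 types in both libraries, 13 were highest in the same type in both, compared with 59.2% of all 10283 such genes. Kcna5 and Kcnk6 were highest in endothelial-like barcodes (as were 17.5% of all such genes), Kcnt2 and Kcnk2 in fibroblast-like (14.3%), and 3 members, Kcnj8 and Abcc9 among them, in pericyte-like ones (18.2%). Smooth muscle-like barcodes were highest for 6 (9.18%), among them Kcnab1, Kcnmb1, Kcnj2, Kcnj12 and Kcnt1. The order differed between the libraries for Kcne4 and Kcnj15. Kcnt1 (2 and 5 UMIs in smooth muscle-like barcodes) and Kcnj12 (3 and 6) were placed by few UMIs.

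**Figure D1:**
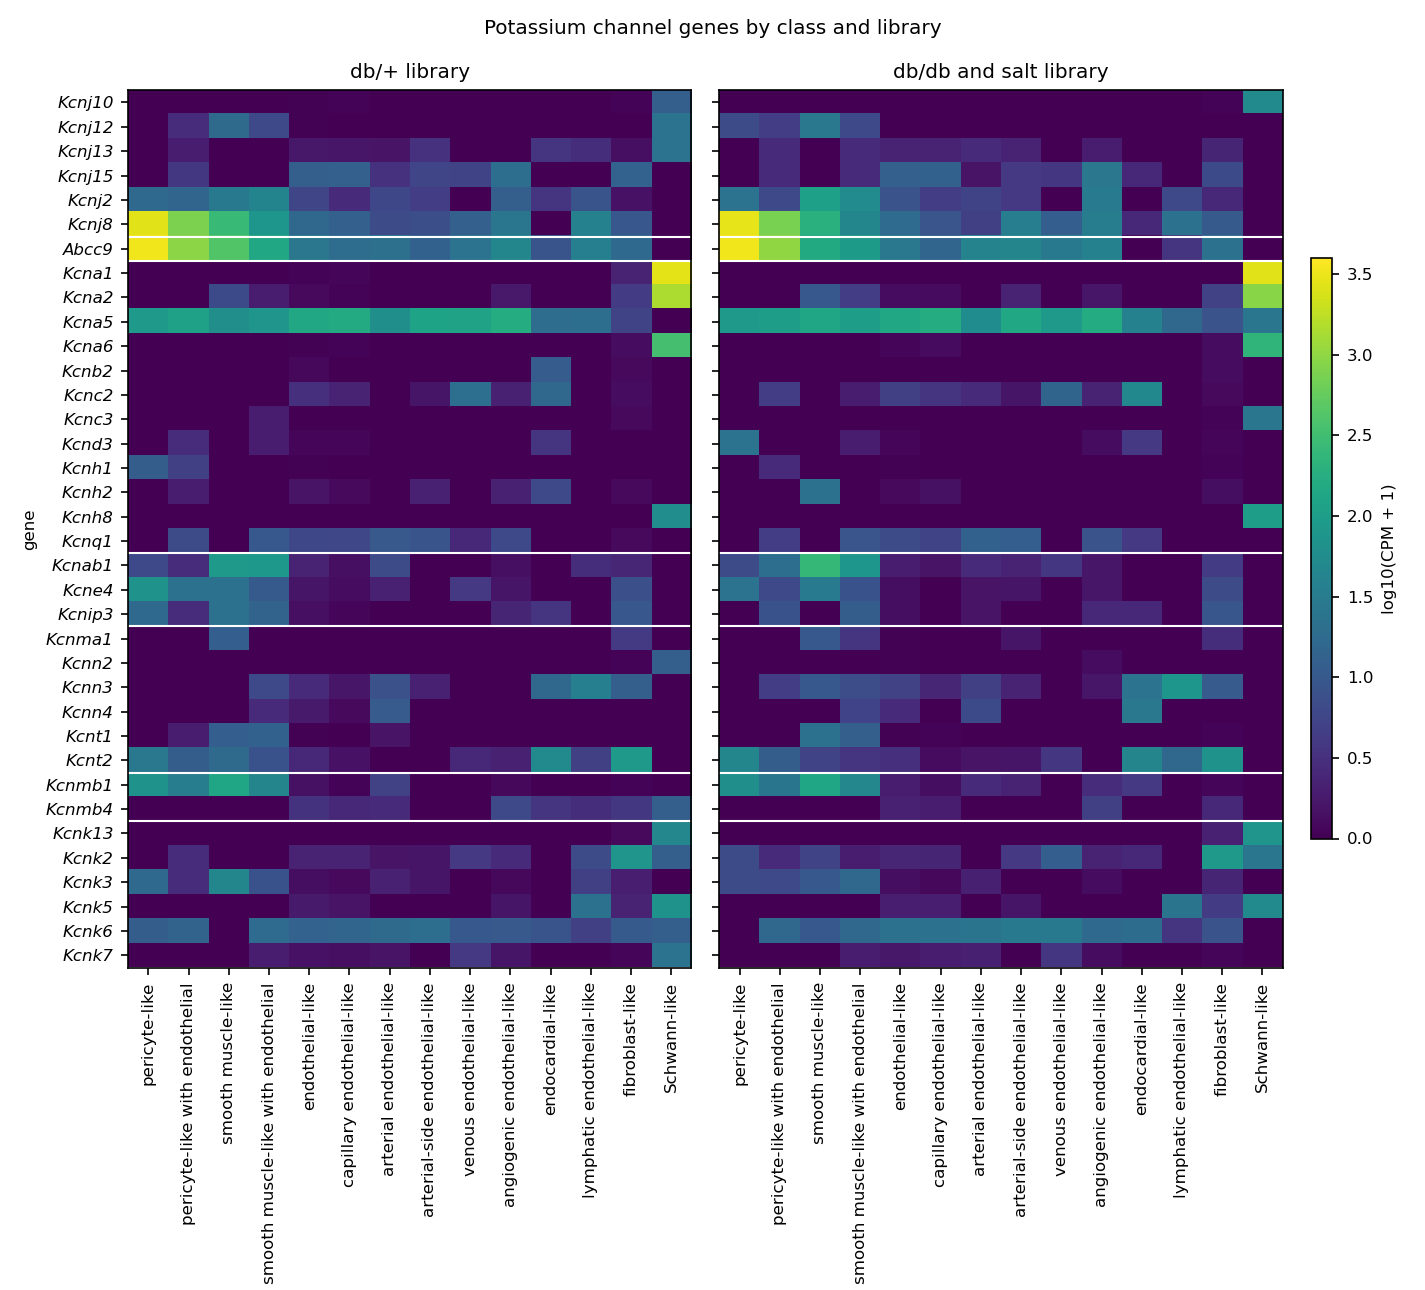
Level of 36 of the 38 potassium channel genes that reached 10 CPM in any class, as log10 of (CPM + 1), with genes in rows grouped by family (white lines), classes in columns and the db/+ and db/db and salt libraries in separate panels. Kcnj8 and Abcc9 are brightest in pericyte-like barcodes, Kcna1 and Kcna2 in Schwann-like barcodes, and Kcnt2 and Kcnk2 in fibroblast-like barcodes.

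The ATP-sensitive channel genes marked pericyte-like barcodes. Kcnj8, the pore subunit Kir6.1, was at 2747 CPM in the db/+ library (516 UMIs, 95% Poisson interval 2515 to 2994) and at 2892 CPM in the db/db and salt library (519 UMIs, 2649 to 3152). Abcc9, its SUR2 partner, was at 3322 CPM (624 UMIs, 3066 to 3593) and 3288 CPM (590 UMIs, 3028 to 3564). The intervals of the libraries overlapped for both genes, and the log2 ratios of db/db and salt over db/+ were 0.07 and -0.01 (computed here and below on CPM + 10). With mixed barcodes kept in the class, Kcnj8 was at 939 and 1132 CPM and Abcc9 at 1174 and 1408 CPM, and with classes from clusters at 974 and 1216 CPM and 1179 and 1467 CPM. Both genes were found together in 39 of 42 and 39 of 39 pericyte-like barcodes, which is 92.9% (exact binomial interval 80.5% to 98.5%) and 100% (91.0% to 100%). With each cell thinned to 1500 UMIs, Kcnj8 was still seen in 90.2% and 87.2% of pericyte-like barcodes, compared with 1.09% and 0.941% of endothelial-like and 0.912% and 1.21% of fibroblast-like ones. Median depths before thinning were 4092 and 4347 UMIs in pericyte-like and 5602 and 5643 UMIs in endothelial-like barcodes.

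The next highest class was pericyte-like with endothelial, where Kcnj8 was at 766 and 754 CPM and Abcc9 at 944 and 1004 CPM. Both genes were found together in 68 of 75 (81.7% to 96.2%) and 29 of 38 (59.8% to 88.6%) of these barcodes. After thinning Kcnj8 was seen in 71.6% (60.0% to 81.5%) and 44.7% (28.6% to 61.7%) of them. Detection was thus lower in db/db and salt, with overlapping intervals. Smooth muscle-like barcodes followed, with Kcnj8 at 272 CPM (202 to 359) and 189 CPM (137 to 255) and Abcc9 at 424 CPM (335 to 530) and 154 CPM (107 to 214). Intervals of the pericyte-like, pericyte-like with endothelial and smooth muscle-like classes did not overlap for either gene in either library. In smooth muscle-like barcodes Abcc9 was the only one of the pair more than 1.5-fold apart between the libraries, with a log2 ratio of -1.41, from 78 UMIs in 14 of 28 and 35 UMIs in 14 of 31 barcodes. Its ratio was -0.41 when classes came from clusters, which take in barcodes with endothelial RNA. In smooth muscle-like barcodes with endothelial RNA, Kcnj8 was at 77.4 and 43.6 CPM and Abcc9 at 139 and 90.6 CPM, both with intervals apart, and the log2 ratios were -0.71 and -0.57. Kcnj11 (Kir6.2) and Abcc8 (SUR1), the pair that forms the ATP-sensitive channel of pancreatic beta cells, had few UMIs. Kcnj11 had 0 and 2 UMIs in all kept barcodes and Abcc8 had 1 and 4.

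**Figure D2:**
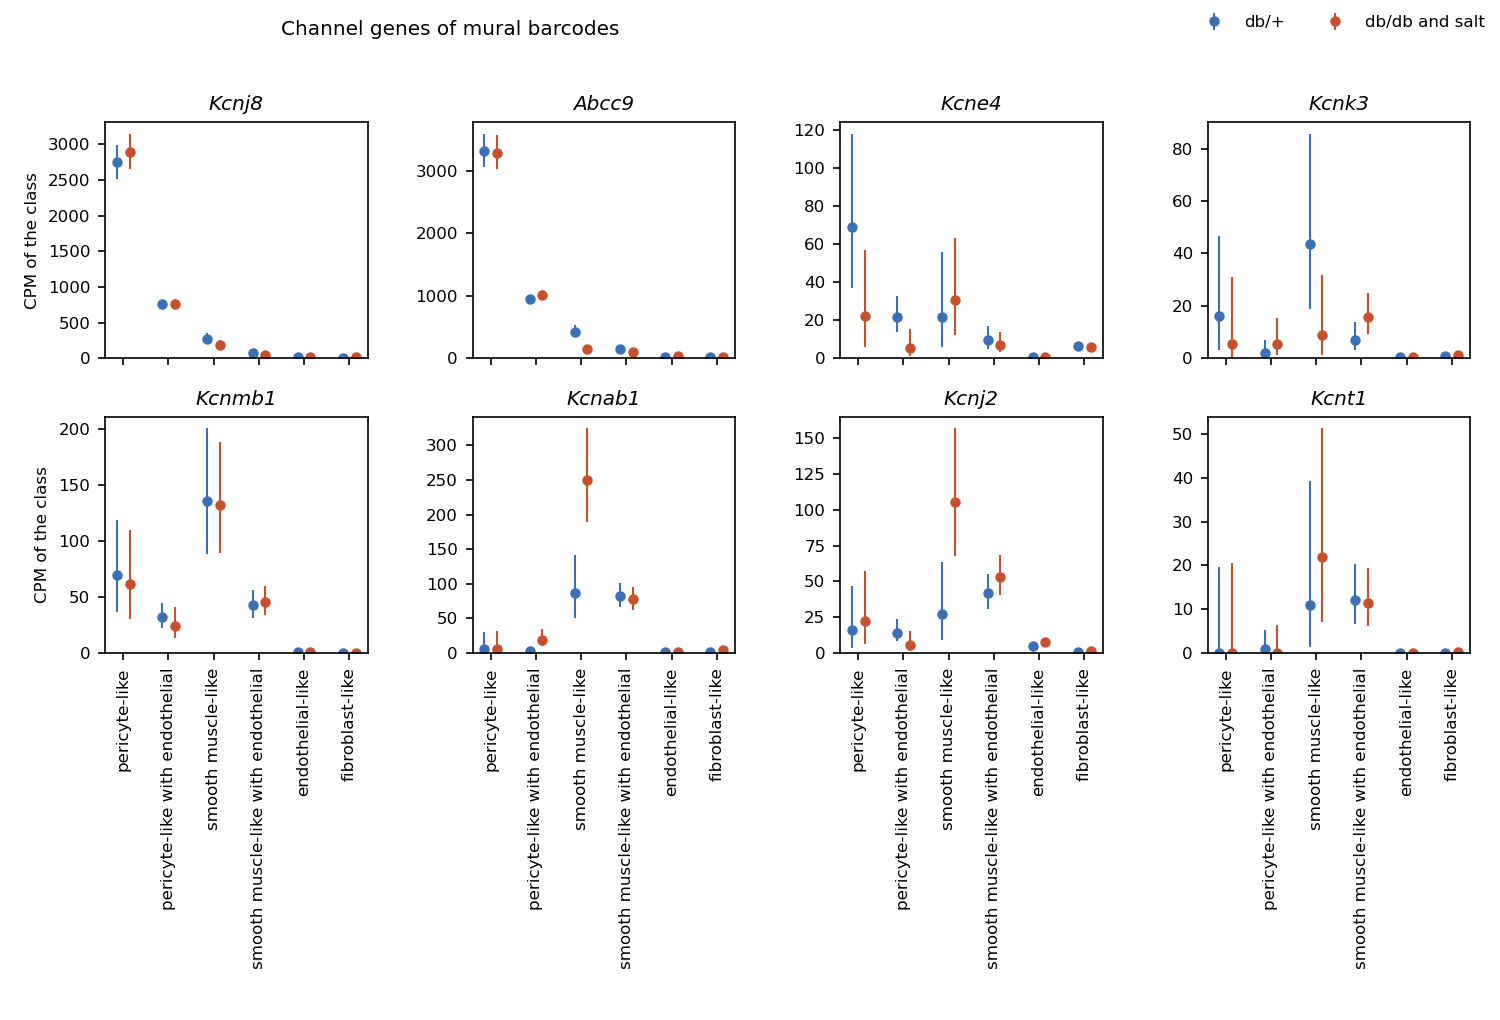
CPM of 8 potassium channel genes (y axis, a separate linear scale per gene) in 6 classes of barcodes (x axis), with db/+ in blue and db/db and salt in orange, points for the level of the class and bars for the 95% Poisson interval. Kcnj8 and Abcc9 run from 2747 CPM or more in pericyte-like barcodes to below 30 CPM in endothelial-like ones, while Kcnab1 and Kcnmb1 are highest in smooth muscle-like barcodes.

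Kcnj8 and Abcc9 were also detected in endothelial-like barcodes, at 15.1 and 17.4 CPM and at 25.8 and 26.8 CPM. These UMIs sat in few barcodes: 394 and 370 Kcnj8 UMIs came from 103 of 3298 and 95 of 2754. When the 174 and 150 endothelial-like barcodes with a UMI of 2 or more pericyte markers were left out, Kcnj8 was at 2.70 and 3.73 CPM and Abcc9 at 5.95 and 5.20 CPM. Between the libraries, arterial-side endothelial-like barcodes, with 4 or 5 of 8 arterial markers, had 6.33 CPM of Kcnj8 in db/+ and 33.4 CPM in db/db and salt (log2 ratio 1.41), and 12.1 and 41.8 CPM of Abcc9 (1.23). The 56 Kcnj8 UMIs of the db/db and salt library came from 4 of 223 barcodes. Without the barcodes with pericyte markers the levels there were 0.626 and 1.32 CPM for Kcnj8 and 2.50 and 3.95 CPM for Abcc9, and the ratios were 0.09 and 0.16. At levels this low the pseudocount of 10 CPM makes ratios small, so they do not show whether the libraries still differed. Pericyte markers summed to 376 and 518 CPM in the arterial-side class, fibroblast markers to 50.7 and 267 CPM and leukocyte markers to 4.03 and 84.8 CPM, and the part of the latter 2 lists in the difference was not tested. In barcodes without an endothelial subtype, where pericyte markers summed to 708 and 835 CPM, the same step took Kcnj8 from 21.1 and 51.3 CPM to 3.52 and 0.624 CPM, and Abcc9 from 35.5 and 72.2 CPM to 4.93 and 4.99 CPM. In fibroblast-like barcodes Kcnj8 was at 8.49 and 9.48 CPM and Abcc9 at 15.9 and 21.1 CPM, and pericyte markers at 254 and 257 CPM in all.

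**Figure D3:**
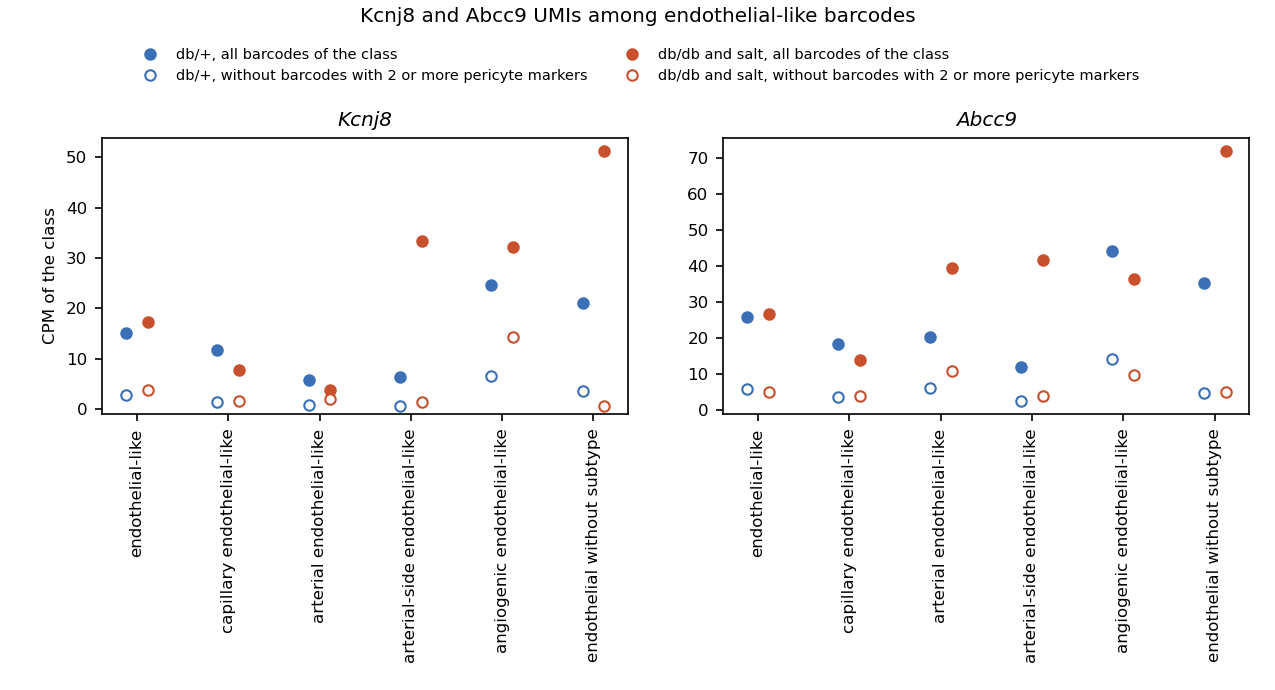
CPM of Kcnj8 (left) and Abcc9 (right) in endothelial-like barcodes and 5 of their subtypes, by library colour, with filled points for all barcodes of the class and open points after leaving out barcodes with a UMI of 2 or more pericyte markers. Every open point lies below its filled one, and the largest library gaps, in the arterial-side class and the class without subtype, are not seen in the open points.

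Among the other inward rectifiers, Kcnj2 and Kcnj12, which encode the classical strong rectifiers Kir2.1 and Kir2.2, were highest in smooth muscle-like barcodes when these were compared with pericyte-like, endothelial-like and fibroblast-like ones. Kcnj2 was at 27.2 CPM (5 UMIs, 8.83 to 63.5) and 106 CPM (24 UMIs, 67.6 to 157), a log2 ratio of 1.64. With clusters, which take in barcodes with endothelial RNA, that ratio was 0.38. Thinning the smooth muscle-like barcodes to 1500 UMIs turned it to -2.66, with a Kcnj2 UMI left in only 2 of 25 and 0 of 26. Cardiomyocyte markers summed to 5.44 CPM (UMIs of 1 of 6 markers) and 101 CPM (5 of 6) in these barcodes, most of it Tnnt2 at 5.44 and 83.6 CPM, while Myh6 was at 0 in both. Fibroblast markers summed to 1605 and 612 CPM, leukocyte markers were at 0, and the part of these lists in the library differences of smooth muscle-like barcodes was not tested. In the larger class of smooth muscle-like barcodes with endothelial RNA Kcnj2 was at 41.7 and 53.1 CPM, with overlapping intervals between the libraries, and in db/+ this was above the smooth muscle-like level, again with overlapping intervals. Kcnj2 also differed in angiogenic endothelial-like barcodes, at 11.4 CPM (59 UMIs, 8.65 to 14.7) and 28.3 CPM (89 UMIs, 22.8 to 34.9), a log2 ratio of 0.84. It was seen in 32 of 341 and 44 of 209 barcodes there, and in that class smooth muscle markers summed to 68.9 and 56.0 CPM and erythroid markers to 5792 and 139 CPM, whose part was not tested. After thinning, 2.07% (0.834% to 4.21%) and 3.85% (1.68% to 7.44%) of angiogenic barcodes had a Kcnj2 UMI, with overlapping intervals. In pericyte-like barcodes with endothelial RNA Kcnj2 was instead lower in db/db and salt, past the 1.5-fold limit. After thinning it was seen there in 5 of 74 and 0 of 38 barcodes. In capillary endothelial-like barcodes Kcnj2 was at 1.78 and 3.58 CPM, and in venous ones it had no UMI. Kcnj12 had 3 and 6 UMIs in smooth muscle-like barcodes (16.3 and 26.4 CPM).

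Kcnj15, which encodes Kir4.2, had its highest level in angiogenic endothelial-like barcodes, at 18.9 CPM (15.3 to 23.0) and 25.5 CPM (20.2 to 31.7). Capillary endothelial-like barcodes had 11.9 and 12.1 CPM and arterial ones 2.28 and 0.549 CPM. In fibroblast-like barcodes it was at 12.5 CPM (10.6 to 14.6) and 5.38 CPM (4.21 to 6.77), with intervals apart and a log2 ratio of -0.55, just inside the 1.5-fold limit. Those UMIs came from 44 of 1225 and 27 of 1086 barcodes. Kcnj15 had no UMI in pericyte-like or smooth muscle-like barcodes.

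Kcna5 (chr6:126532551-126535412, minus strand), which encodes Kv1.5, a voltage-gated channel, was an endothelial member. It was at 144 CPM in endothelial-like barcodes of both libraries, with 3758 UMIs (140 to 149) and 3059 UMIs (139 to 149). In fibroblast-like barcodes it was at 4.49 and 7.47 CPM. Thinned to 1500 UMIs, 18.9% and 19.4% of endothelial-like barcodes had a Kcna5 UMI, compared with 0.580% and 1.30% of fibroblast-like ones. After thinning it was also seen in 2 of 25 and 7 of 26 smooth muscle-like and in 2 of 41 and 6 of 39 pericyte-like barcodes. Intervals of the smooth muscle-like shares overlapped with the endothelial-like ones in both libraries, and those of the pericyte-like shares only in db/db and salt. Thinned detection thus set endothelial-like barcodes apart from fibroblast-like but not from smooth muscle-like ones. Unthinned shares in endothelial-like barcodes were 52.5% and 53.7%.

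Along the vascular tree Kcna5 was highest in angiogenic endothelial-like barcodes, at 170 CPM (159 to 181) and 165 CPM (151 to 180), and in capillary ones, at 160 CPM (153 to 167) and 168 CPM (160 to 176), and the intervals of these classes overlapped. Arterial-side barcodes had 122 CPM (106 to 140) and 140 CPM (122 to 159), below the capillary level with intervals apart in both libraries. Venous barcodes, at 119 CPM (94.3 to 148) and 84.6 CPM (57.5 to 120), overlapped with arterial-side ones in the db/+ library and lay below them in the db/db and salt library. Arterial barcodes, at 60.9 CPM (49.9 to 73.6) and 56.0 CPM (45.7 to 68.0), were apart from arterial-side ones in both libraries. Endocardial-like barcodes had 18.1 and 37.0 CPM of Kcna5 and lymphatic endothelial-like ones 19.3 and 15.6 CPM.

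The same barcodes, all endothelial-like ones other than endocardial and lymphatic, were also grouped by the number of arterial markers with a UMI. The 2 groups with most markers are nearly the arterial-side and arterial classes again, so they give no separate evidence on these. Kcna5 was at 159 and 166 CPM with 0 or 1 marker, 158 and 157 CPM with 2 or 3, 131 and 143 CPM with 4 or 5, and 79.2 and 65.1 CPM with 6 to 8, so it was lower mainly in the group with most arterial markers. Kcnj15 was lower there too. It was at 14.3 and 16.8 CPM with 0 or 1 marker, 11.6 and 12.8 CPM with 2 or 3, 7.95 and 6.21 CPM with 4 or 5, and 2.72 and 1.41 CPM with 6 to 8. Kcnq1 ran the other way in the db/db and salt library, at 3.83 CPM (2.60 to 5.43) with 0 or 1 marker and 12.7 CPM (8.33 to 18.4) with 6 to 8, while in the db/+ library the intervals of these groups overlapped, at 4.70 CPM (3.56 to 6.09) and 7.69 CPM (4.48 to 12.3).

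**Figure D4:**
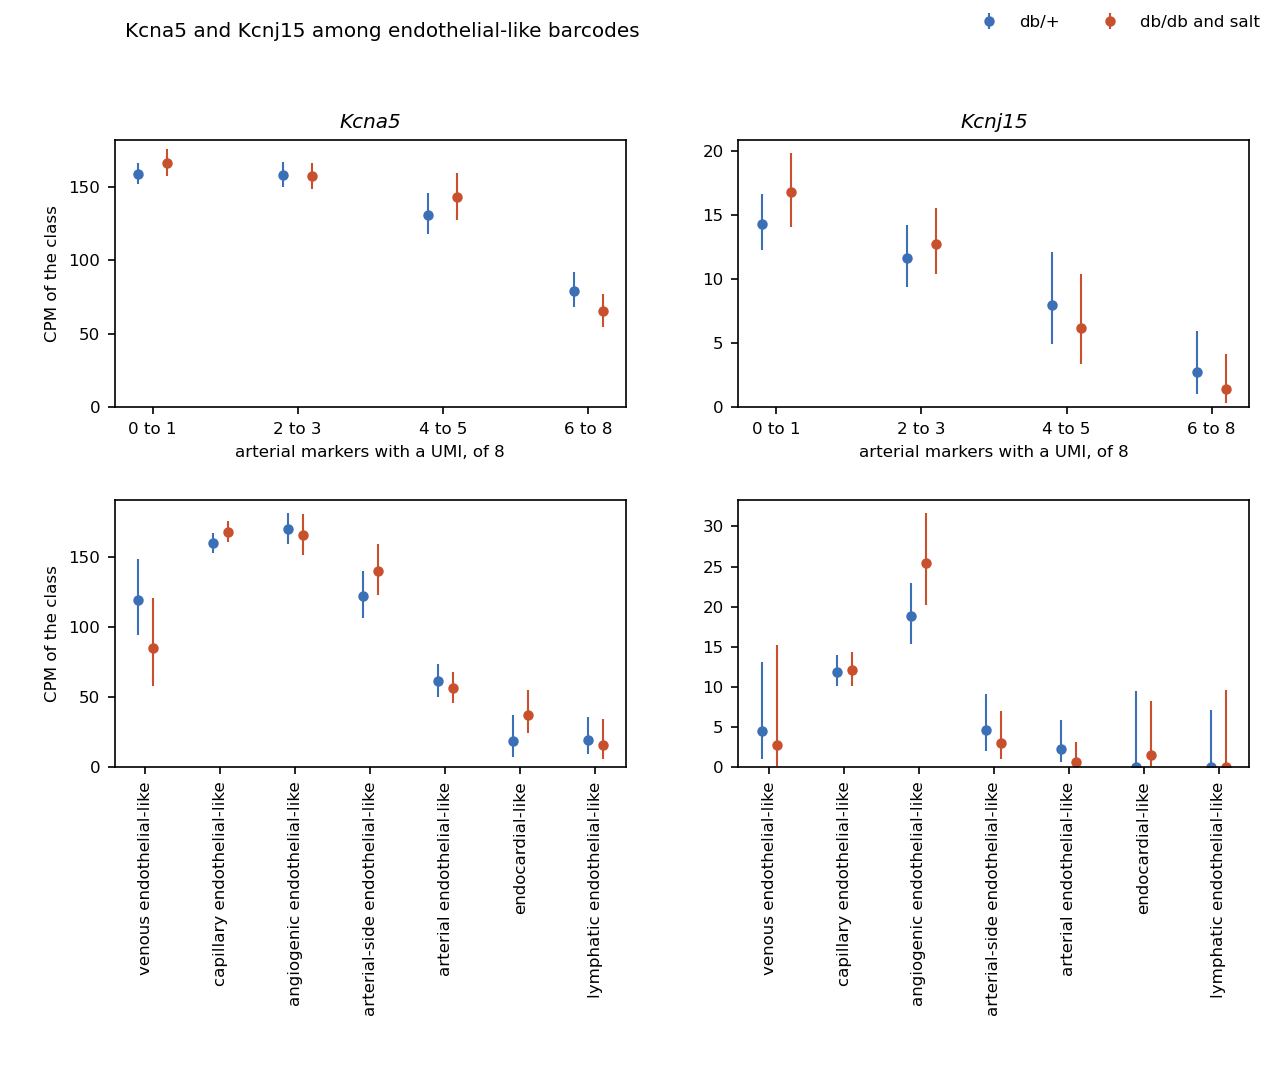
CPM of Kcna5 (left) and Kcnj15 (right) in endothelial-like barcodes grouped by the number of 8 arterial markers with a UMI (top) and by subtype (bottom), with db/+ in blue, db/db and salt in orange and bars for the 95% Poisson interval. Kcna5 is lower in arterial, endocardial and lymphatic barcodes than in capillary ones, and Kcnj15 is highest in angiogenic barcodes and at 2.28 and 0.549 CPM in arterial ones.

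Kcna5 was also present in smooth muscle-like barcodes, at 59.8 CPM (11 UMIs, 29.9 to 107) and 132 CPM (30 UMIs, 89.0 to 188). This is 41.5% and 91.9% of the endothelial-like level, while endothelial markers in the same barcodes were at 9.16% and 10.9% of theirs. In pericyte-like barcodes Kcna5 was at 85.2 and 83.6 CPM, which is 59.1% and 58.2% of the endothelial-like level, with endothelial markers at 10.2% and 9.64%. The part of endothelial RNA in the Kcna5 levels of both mural classes was not tested. The log2 ratio in smooth muscle-like barcodes was 1.02, with overlapping intervals. With a mitochondrial limit of 20% it was 0.08.

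Further voltage-gated members had lower levels. Kcnq1 (Kv7.1) was at 9.11 and 12.1 CPM in arterial and 4.85 and 4.56 CPM in capillary endothelial-like barcodes. Its gene body overlaps the antisense transcript Kcnq1ot1, and the sources used here do not say whether counting used strand. Kcnc2, which encodes Kv3.2, was found in endocardial-like (15.5 and 47.3 CPM) and venous endothelial-like barcodes (19.3 and 13.6 CPM) and was at 1.29 and 2.51 CPM in capillary ones. The endocardial values came from 6 UMIs in 4 of 51 and 32 UMIs in 12 of 52 barcodes, with overlapping intervals. Kcnb2 had 4 UMIs in endocardial-like barcodes of the db/+ library and none in the other. Kcnh1, Kcnh2 and Kcnd3 reached 10 CPM in a single library each, with 2 to 5 UMIs in pericyte-like or smooth muscle-like barcodes, and the 4 UMIs of Kcnd3 came from 1 barcode.

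The auxiliary subunits that reached 10 CPM did so in mural classes. Kcnab1 encodes Kv beta 1, which binds channels of the Kv1 family such as Kv1.5. It was at 87.0 CPM (16 UMIs, 49.7 to 141) and 251 CPM (57 UMIs, 190 to 325) in smooth muscle-like barcodes, at 5.32 and 5.57 CPM in pericyte-like and at 1.19 and 0.892 CPM in endothelial-like ones. The 57 UMIs came from 18 of 31 barcodes and the 16 from 10 of 28, and the log2 ratio between the libraries was 1.43 with intervals apart. The libraries did not differ in this way in smooth muscle-like barcodes with endothelial RNA, at 82.6 and 77.5 CPM (-0.08). The ratio was 0.17 with clusters and 0.27 with mixed barcodes kept, but these classes also take in barcodes with endothelial RNA. They are thus no separate check. After thinning the ratio was 0.44. Kcne4, a single-span subunit that modulates Kv channels, had 13 and 4 UMIs in pericyte-like barcodes (69.2 and 22.3 CPM) and 23 and 3 UMIs in pericyte-like barcodes with endothelial RNA (21.7 and 5.21 CPM). The log2 ratios were -1.29 and -1.06, and the intervals overlapped in both classes. In smooth muscle-like barcodes Kcne4 was at 21.8 and 30.8 CPM. Kcnip3 was at 8.58 and 8.14 CPM in fibroblast-like barcodes and at 13.04 and 10.45 CPM in smooth muscle-like barcodes with endothelial RNA.

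Of the calcium-activated channel of large conductance, the beta 1 subunit gene Kcnmb1 was mural. Smooth muscle-like barcodes had 136 CPM (25 UMIs, 88.0 to 201) and 132 CPM (30 UMIs, 89.0 to 188), and pericyte-like barcodes 69.2 CPM (36.9 to 118) and 61.3 CPM (30.6 to 110), with intervals that overlapped between these classes. Endothelial-like barcodes had 0.460 and 0.892 CPM and fibroblast-like ones 0.0817 and 0.149 CPM. Kcnmb1 lies inside Kcnip1 on the opposite strand, and Kcnip1 itself had 62 and 69 UMIs in all kept barcodes. The pore subunit gene Kcnma1 had only 2 UMIs in smooth muscle-like barcodes of each library, 10.9 and 8.80 CPM, and none in pericyte-like ones, where 3 UMIs would be 16.0 and 16.7 CPM. It was at 3.10 and 1.94 CPM in fibroblast-like barcodes.

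Small and intermediate conductance channels are known in endothelium for starting hyperpolarization that spreads to the vessel wall. Most UMIs of Kcnn3 (SK3) were nevertheless in fibroblast-like barcodes, 136 of 193 and 130 of 233, while its level was highest in lymphatic endothelial-like barcodes, at 34.7 CPM (18 UMIs, 20.6 to 54.8) and 77.9 CPM (30 UMIs, 52.6 to 111). The interval of the db/db and salt library there lay above that of its endocardial-like barcodes, at 22.2 CPM (12.4 to 36.6), while in the db/+ library it overlapped with the endocardial level of 15.5 CPM (5.68 to 33.7). Fibroblast-like barcodes had 11.1 and 9.71 CPM of Kcnn3, and capillary endothelial-like ones 0.646 and 1.43 CPM. By number of arterial markers, Kcnn3 was at 0.247 CPM (0.051 to 0.723) and 0.988 CPM (0.427 to 1.95) with 0 or 1. With 6 to 8 it was at 5.43 CPM (2.81 to 9.49) and 5.62 CPM (2.90 to 9.82), with intervals apart in both libraries. Kcnn1 (SK1), with 28 and 48 UMIs in all kept barcodes, was at 2.29 and 3.58 CPM in fibroblast-like barcodes, the highest of the 4 types, and Kcnn2 (SK2) had 2 UMIs in each library. Kcnn4 (the intermediate conductance channel) was found in arterial endothelial-like barcodes at 9.68 and 5.49 CPM. With arterial markers counted, it was at 7.69 and 7.03 CPM with 6 to 8 of them and had no UMI in either library with 4 or 5. In endocardial-like barcodes Kcnn4 had 0 UMIs in db/+ and 18 in db/db and salt, from 5 of 52 barcodes (26.6 CPM), which is at least 3.44-fold higher than the level of 3 UMIs in the db/+ class (7.74 CPM). In the same class endocardial markers summed to 5713 and 4165 CPM, venous markers to 9214 and 6699, capillary markers to 1246 and 1830, pericyte markers to 299 and 475 and smooth muscle markers to 41.3 and 129 CPM. Leukocyte markers were at 2.58 and 0 CPM and erythroid markers at 15.5 and 5.92 CPM, and the part of these lists in the library differences of endocardial-like barcodes was not tested.

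Of the sodium-activated channel genes, Kcnt2 was highest in fibroblast-like and Kcnt1 in smooth muscle-like barcodes, when these were compared with pericyte-like and endothelial-like ones. Kcnt2 (chr1:140246158-140612067, plus strand) was at 83.6 CPM (1024 UMIs, 78.6 to 88.9) and 67.3 CPM (901 UMIs, 63.0 to 71.8) in fibroblast-like barcodes, with intervals apart and a log2 ratio of -0.28. It was at 1.54 and 2.11 CPM in endothelial-like barcodes. After thinning, 11.7% and 8.93% of fibroblast-like barcodes had a UMI of it, compared with 0.160% and 0.226% of endothelial-like ones, and without thinning 49.4% and 47.9% did. Kcnt2 was also present in endocardial-like barcodes, at 51.6 CPM (31.5 to 79.7) and 42.9 CPM (28.7 to 61.6), from 17 of 51 and 15 of 52 barcodes. Fibroblast markers summed to 3561 and 3237 CPM in endocardial-like barcodes, against 28310 and 30020 CPM in fibroblast-like ones. The fibroblast channel gene Kcnk2 was at 0 and 1.48 CPM in endocardial-like barcodes. The part of fibroblast RNA in their Kcnt2 level was not tested. Pericyte-like barcodes had 26.6 CPM (5 UMIs) and 44.6 CPM (8 UMIs) of Kcnt2, which also reached 10 CPM in smooth muscle-like db/+ barcodes. Kcnt1 had few UMIs, and in smooth muscle-like barcodes with endothelial RNA it was at 12.2 CPM (14 UMIs) and 11.3 CPM (13 UMIs), against 0.0384 and 0.0469 CPM in endothelial-like barcodes.

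Kcnk2 (chr1:189207930-189402273, minus strand), which encodes the mechanosensitive 2-pore channel TREK-1, was the other channel gene of fibroblast-like barcodes. It was at 74.9 CPM (917 UMIs, 70.1 to 79.9) and 86.9 CPM (1163 UMIs, 81.9 to 92.0), with intervals apart and a log2 ratio of 0.19, opposite in sign to that of Kcnt2. Endothelial-like barcodes had 1.27 and 1.41 CPM and pericyte-like ones 0 and 5.57 CPM (0 and 1 UMI). Kcnk2 was seen in 36.5% and 45.2% of fibroblast-like barcodes, and after thinning in 10.0% and 11.8%.

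Kcnk6, another 2-pore gene, was spread more evenly over the endothelium. It was at 12.4 CPM (324 UMIs, 11.1 to 13.9) and 20.98 CPM (447 UMIs, 19.1 to 23.0) in endothelial-like barcodes, a log2 ratio of 0.47 with intervals apart. The level was higher in the db/db and salt library in capillary (13.7 and 20.9 CPM), arterial (16.5 and 23.1 CPM), arterial-side (19.0 and 27.5 CPM), angiogenic (9.05 and 16.2 CPM), venous (8.92 and 27.3 CPM) and endocardial-like barcodes (7.74 and 17.8 CPM), and the intervals were apart in the capillary and angiogenic classes. The log2 ratio over all endothelial-like barcodes passed the 1.5-fold limit with a pseudocount of 1 CPM (0.71) and after thinning (0.75). After thinning Kcnk6 was seen in 2.21% and 3.81% of capillary barcodes. In angiogenic ones the order was reversed, at 1.77% (6 of 339) and 0.962% (2 of 208), and lymphatic ones had 3.45% and 3.57%. Fibroblast-like barcodes had 9.47 and 7.32 CPM of Kcnk6. Kcnk3, which encodes the acid-sensitive channel TASK-1, had 8 and 2 UMIs in smooth muscle-like barcodes (43.5 and 8.80 CPM) and 8 and 18 UMIs in those with endothelial RNA (6.95 and 15.7 CPM), so the libraries differed in opposite directions, with overlapping intervals in both classes. Kcnk5 (TASK-2) was found in lymphatic endothelial-like barcodes at 21.2 and 23.4 CPM and was at 0.565 and 0.984 CPM in capillary ones.

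Schwann-like barcodes, 18 and 9 in number, carried several channel genes that stayed below 10 CPM in endothelial-like, fibroblast-like, pericyte-like and smooth muscle-like barcodes. Kcna1, which encodes Kv1.1, known from myelinated axons, was at 2833 CPM (251 UMIs) and 2720 CPM (109 UMIs), and it was found in 18 of 18 and 8 of 9 barcodes. Kcna2 (Kv1.2) was at 1422 and 898 CPM and Kcna6 (Kv1.6) at 350 and 225 CPM. Kcna2 had 178 and 108 UMIs in all kept barcodes and was also found outside this class, at 5.44 and 8.80 CPM in smooth muscle-like barcodes. After thinning it was seen in 3 of 1206 and 10 of 1075 fibroblast-like barcodes. Outside this class Kcna1 stayed at or below 1.31 CPM in every class and library described here, and that value, in fibroblast-like barcodes, came from 16 UMIs in 1 barcode. Kcna1, Kcna6 and Kcna5 are neighbours on chromosome 6, with 61944 bases between Kcna1 and Kcna6 and 104984 between Kcna5 and Kcna1, yet Kcna5 had 0 and 1 UMI in Schwann-like barcodes. Kcnh8 had 5 and 4 UMIs (56.4 and 99.8 CPM), Kcnk13 had 4 and 3 (45.2 and 74.9 CPM) and Kcnk5 had 6 and 2 (67.7 and 49.9 CPM) in this class. Kcnk5 was also found in lymphatic endothelial-like barcodes, as given above.

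Between the libraries, a member was counted as different when its level was at least 1.5-fold apart on the CPM + 10 scale and reached 10 CPM in either. In endothelial-like barcodes 0 of 6 members compared met this, against 2.21% of 8569 genes (0.513% higher and 1.69% lower in db/db and salt), with a median log2 ratio of 0.08 for the members and 0.05 for all genes. None did in fibroblast-like barcodes either (0 of 5, against 1.71% of 8870 genes, 0.586% higher and 1.13% lower), where the medians were -0.10 and 0.02, or in capillary endothelial-like barcodes (0 of 6, against 2.36% of all genes, 0.56% higher and 1.8% lower). In arterial endothelial-like barcodes 2 of 5 members passed, both higher in db/db and salt, and Abcc9 was among them (4.2% of all genes, 1.68% higher and 2.52% lower). Abcc9 was there at 20.5 and 39.5 CPM, and at 6.28 and 10.9 CPM without barcodes with pericyte markers. Kcnj8 and Abcc9 made up the 2 of 6 in arterial-side barcodes (5.41% of all genes, 3.33% higher and 2.08% lower). Kcnj2 was the 1 of 7 in angiogenic barcodes (2.34%, 0.821% higher and 1.51% lower). In barcodes without subtype 3 of 6 differed, Kcnj8, Abcc9 and Kcnk6, all higher in db/db and salt (5.33%, 1.99% higher and 3.35% lower). Proliferating markers summed to 530 and 65.9 CPM in the class without subtype and erythroid markers to 561 and 21.3 CPM, and in arterial barcodes they summed to 92.2 and 7.69 CPM and to 4672 and 2799 CPM. Their part in these differences was not tested.

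In the small classes the share of all genes past the limit was high, and the members' counts are read against it. It was 38.9% in pericyte-like barcodes (19.2% higher and 19.7% lower), where 7 of 14 members passed, 1 higher and 6 lower. It was 41.2% in smooth muscle-like barcodes (21.6% higher and 19.6% lower), where 11 of 16 did, 7 higher and 4 lower. Of the 11, Kcnab1 and Kcnj2 (higher) and Abcc9 (lower) had intervals apart, and of the 7 in pericyte-like barcodes none had. In pericyte-like barcodes proliferating markers summed to 351 CPM (6 of 6 with a UMI) and 0 CPM and capillary endothelial markers to 378 and 842 CPM, and their part in the library differences of this class was not tested. The larger mixed classes had 3 of 11 for pericyte-like (11.6% of all genes, 5.87% higher and 5.71% lower) and 2 of 11 for smooth muscle-like with endothelial RNA (6.57%, 3.18% higher and 3.39% lower). The former were Kcnab1 (higher, with 2 and 11 UMIs), Kcne4 (lower) and Kcnj2 (lower), and the latter Kcnk3 (higher) and Kcnj8 (lower). Erythroid markers summed to 14.2 and 2852 CPM in the former class, and their part was likewise not tested. In venous barcodes 2 of 7 passed, Kcnk2 and Kcnk6, both higher (21.6%, 11.4% higher and 10.2% lower). Endocardial-like barcodes had 5 of 8 (21.6%, 12.8% higher and 8.8% lower), of which Kcnn4 alone had intervals apart. Lymphatic barcodes had 5 of 7 (23.0%, 9.9% higher and 13.1% lower), of which Abcc9 alone did, with 18 UMIs in 3 barcodes and 1 UMI in 1 barcode, and pericyte markers there summed to 568 and 57.2 CPM and proliferating markers to 204 and 2.60 CPM. In Schwann-like barcodes 14 of 16 passed, where 69.2% of all genes did (29.4% higher and 39.8% lower).

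**Figure D5:**
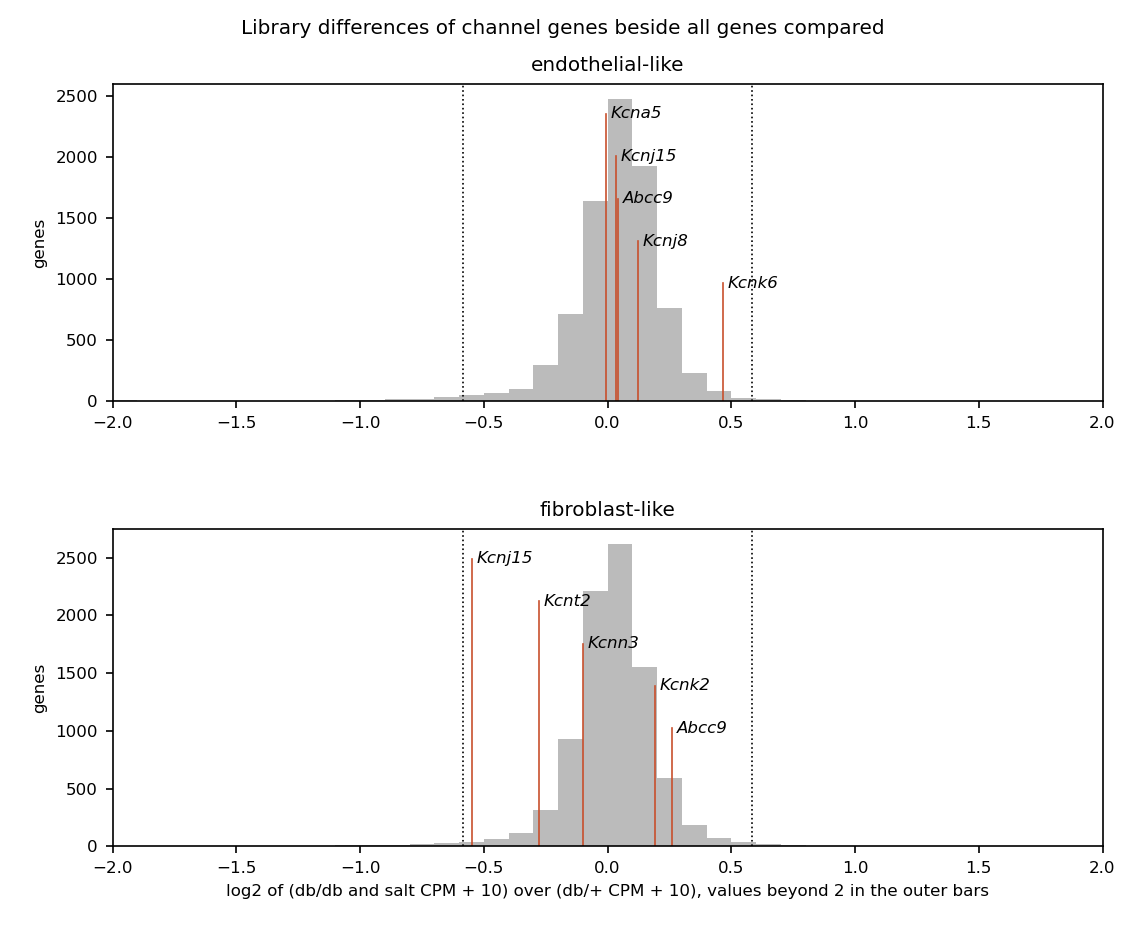
Number of genes (y axis) by log2 of (db/db and salt CPM + 10) over (db/+ CPM + 10) (x axis) in endothelial-like (top) and fibroblast-like (bottom) barcodes, with 10 labelled lines for potassium channel genes and the 1.5-fold limits dotted. All lines lie inside the limits, with Kcnk6 towards the right in endothelial-like and Kcnj15 and Kcnt2 towards the left in fibroblast-like barcodes.

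Other genes of potassium and cation transport were read from lists of pump, cotransporter, channel partner, cation channel and gap junction genes, to be set against the shares of all genes above. In endothelial-like barcodes none of those compared passed the 1.5-fold limit: 0 of 5 sodium-potassium pump genes, 0 of 4 potassium cotransporters, 0 of 3 channel partners, 0 of 5 cation channels and 0 of 4 connexins. In fibroblast-like barcodes 1 of 7 pump genes and 1 of 3 channel partners were lower in db/db and salt. These were Fxyd5, a pump regulator, at 210 and 135 CPM (log2 ratio -0.60), and Cav1, the main protein of caveolae, at 40.67 and 20.98 CPM (-0.71). In pericyte-like barcodes 0 of 8 pump genes, 2 of 5 cotransporters (Slc12a9 higher, Slc12a4 lower), 0 of 2 channel partners, 3 of 12 cation channels (Cacnb2 and Tmem175 higher, Trpc1 lower) and 1 of 2 connexins passed. The connexin was Gjc1 (connexin 45), at 905 CPM from 170 UMIs and 424 CPM from 76 UMIs (-1.08), in the class whose proliferating and capillary endothelial markers differed as given above.

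Slc12a2, the sodium-potassium-chloride cotransporter, was at 751 and 719 CPM in pericyte-like, 158 and 106 CPM in smooth muscle-like and 80.3 and 85.5 CPM in endothelial-like barcodes. Atp1b2, a beta subunit of the sodium-potassium pump, was high in both mural classes, at 303 and 435 CPM in pericyte-like and 234 and 383 CPM in smooth muscle-like barcodes, against 14.2 and 17.6 CPM in endothelial-like ones. In smooth muscle-like barcodes 2 of 8 pump genes were higher in db/db and salt (Atp1b2 and Atp1b3), 1 of 5 cotransporters was higher, 0 of 2 channel partners differed, 4 of 14 cation channels were higher and 1 lower, and 1 of 4 connexins was higher.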

How the data were processed

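The data are 1 single-cell library of db/+ hearts and 1 of hearts of db/db mice with salt, grouped by the genotype label. The authors deposited UMI counts of each gene in each barcode without normalization, in matrices that carry Cell Ranger 6.0.2 as their software per the file headers. Seurat and the GRCm38 (mm10) build are named per the submitters' processing notes, and the sources used here give neither the annotation release nor the use of strand. The matrices held 5676 and 4751 barcodes with 44935235 and 40974634 UMIs.

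Barcodes with at most 10% mitochondrial UMIs and at least 500 genes were kept, and Scrublet (scanpy 1.11.5) marked 64 (1.29%) and 50 (1.21%), which were removed. A type counted as present where a barcode had UMIs of at least 4 of its 8 markers (3 of 6 for cardiomyocytes, leukocytes and Schwann cells) and a marker share of at least 30% of the median of that type. Barcodes with more than 1 type were left out, apart from the mural ones with endothelial markers. A mural barcode was smooth muscle-like from a smooth muscle share of 12% of its mural marker UMIs, and 89 of 398 lay within 2-fold of that share. Arterial barcodes had 6 or more of 8 markers, venous 4 of 7, angiogenic 3 of 6, endocardial 3 of 6, lymphatic 3 of 5 and capillary 5 of 6. All of these limits were chosen with the data in view. The members and the gene lists were chosen with earlier results of these data known.

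UMIs were summed per class and library and scaled to CPM, with exact 95% Poisson intervals, and shares of cells have exact Clopper-Pearson intervals. Members at 10 CPM or more in either library in a class of at least 50 barcodes were named, and those that reached it only in smaller classes were named as well. Library ratios use a pseudocount of 10 CPM and a limit of 1.5-fold. The script was tested on simulated data. Alternatives were other filters, class rules, pseudocounts, floors and TMM scaling (edgeR 4.0.16). Leaving out endothelial-like barcodes with pericyte markers was added after the data were seen. Leiden clusters (resolution 2) gave the alternative classes. They were built on the 2000 most variable genes, from which members were not left out, and were named from the marker lists. GENCODE M21 gave positions for 94 of 94 members. Some genes counted here are not reported by name.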

Additional observations from a re-analysis of the deposited data

Results flagged for a closer look

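Kcnj8 and Abcc9 differed between the libraries in opposite directions in different classes, with each class 1 library per group, so the difference between classes was not tested. Kcnj8 was higher in db/db and salt in arterial-side endothelial-like barcodes (log2 ratio 1.41) and in endothelial-like barcodes without subtype (0.98), and lower in smooth muscle-like barcodes with endothelial RNA (-0.71). Abcc9 was higher in arterial (0.70), arterial-side (1.23) and without-subtype (0.85) endothelial-like barcodes and lower in smooth muscle-like barcodes (-1.41). In lymphatic endothelial-like barcodes, which numbered fewer than 50 in each library, Kcnj8 (-0.60) and Abcc9 (-1.83) were both lower, so the endothelial classes did not all differ in 1 direction. Without endothelial-like barcodes that had a UMI of 2 or more pericyte markers, the 3 endothelial ratios of Abcc9 were 0.36, 0.16 and 0.01. The 2 of Kcnj8 were then 0.09 and -0.35, and the lymphatic ratios were 0.57 for Kcnj8 and 0.05 for Abcc9. Most levels behind these ratios were below 10 CPM, such as 0.626 and 1.32 CPM for Kcnj8 in arterial-side barcodes. With a pseudocount of 10 CPM, ratios of such low levels are small whatever the fold. They therefore do not show whether the libraries still differed. Leaving barcodes out by pericyte markers also takes out pericyte RNA by design.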

How the results depend on the processing

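No paired analysis was possible because each group was a single library. In endothelial-like barcodes the count of members past 1.5-fold went from 0 to 1 with a pseudocount of 1 CPM and after thinning to 1500 UMIs, and the fibroblast-like count did likewise. The pericyte-like count of 7 became 1 with clusters, 2 with mixed barcodes kept, 2 with a pseudocount of 50 CPM and 12 after thinning. The smooth muscle-like count of 11 became 5 with a mitochondrial limit of 20%, 0 with clusters, 3 with mixed barcodes kept and 6 with a pseudocount of 50 CPM. Counts of members above the floor moved as well. At 20 CPM they were 3 in endothelial-like, 2 in fibroblast-like and 8 in pericyte-like db/+ barcodes. At 5 CPM they were 10 and 11 in fibroblast-like barcodes of the 2 libraries and 15 in pericyte-like db/db and salt barcodes, and with mixed barcodes kept 5 in fibroblast-like db/db and salt barcodes. Some reported ratios past the limit changed sign. Without barcodes with pericyte markers, a choice made after seeing the data, Kcnj8 was at -0.35 in endothelial-like barcodes without subtype and at 0.57 in lymphatic ones, and Abcc9 at 0.05 in the latter. The Kcnj8 levels behind these were 3.52 and 0.624 CPM without subtype and 11.2 and 21.6 CPM in lymphatic barcodes. Abcc9 was at 2.24 and 2.70 CPM in the latter, so 2 of these ratios rest on levels below the 10 CPM floor. In mural classes the ratios that changed sign were, with clusters, Kcnk3 (0.0576) and Kcnk6 (0.0253) in pericyte-like and Kcnk3 (0.52), Kcnt1 (-0.0565) and Kcnt2 (0.21) in smooth muscle-like barcodes. With mixed barcodes kept they were Kcnip3 (0.13) and Kcnk3 (0.13) in pericyte-like and Kcnk3 (0.12) in smooth muscle-like barcodes. Kcnh2 was at -0.20 with the 20% limit, and after thinning Kcnj2 was at -2.66, both in smooth muscle-like barcodes. That Kcnj2 value rests on a UMI left in 2 of 25 and 0 of 26 barcodes. The cause of these changes was not tested, and fewer than 50 barcodes per library limit both mural classes.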
